A study of Rattus norvegicus with 9 samples.

Results

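Zmynd8 (transcript ENSRNOT00000025932) encodes a chromatin reader, and it is described here over 9 libraries of poly-A RNA from the rat dorsal hippocampus. It is 1 of the 31786 transcripts counted and 1 of the 10 epigenetic genes that the study pairs with a transcript. The transcript was taken up because its level was low in epileptic rats on a standard diet and close to that of controls in epileptic rats on a ketogenic diet. Its levels in these groups are therefore a description and carry no test.

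All animals were male Wistar rats, 1 per library, with 3 libraries in each of 3 groups. CTRL rats received methyl scopolamine (1 mg/kg) and saline and ate standard diet. PILO rats received methyl scopolamine and then pilocarpine (340 mg/kg, with a second dose of 175 mg/kg where status epilepticus did not follow the first), a muscarinic agonist that induces status epilepticus. Status epilepticus was ended after 60 min with diazepam (8 mg/kg). PILO+KD rats had the same injections and were then fed a ketogenic diet, which is high in fat and low in carbohydrate. Animals were followed for 84 days. No control rats on the ketogenic diet were analysed here, so the diet was compared only among pilocarpine-treated animals.

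Zmynd8 is named for its zinc finger of the MYND type. The protein also carries a PHD finger, a bromodomain and a PWWP domain side by side, with which it binds acetylated and methylated histone tails. It works with the NuRD nucleosome remodelling complex and with the histone demethylase Kdm5c, and it is known mainly for restraining transcription at promoters and enhancers. In hippocampal neurons the same protein is also known as spikar, a partner of the actin-binding protein drebrin in dendritic spines.

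Total counts per library ranged from 9904067 to 24092617. PILO+KD replicate 3 had the fewest counts and was the 1 library whose label carries the run code FC095 in place of FC094. PILO replicate 3 stood apart in several respects. Its TMM factor, which corrects the library total for differences in RNA make-up, was 0.831, with 0.969 to 1.07 in the other 8 libraries. The calcium pump gene Atp2a2 was at 66.9 CPM there (counts scaled to library size; 214 to 357 elsewhere), and Ndufa2, of mitochondrial complex I, was at 156 CPM (45.0 to 93.6 elsewhere). Genes of neurons were low in it as well: the summed level of Scn8a, Kcna1, Kcna2, Cacng2 and Gabrd was 43.7 CPM there and 96.6 to 182 CPM in the other 8 libraries. All 5 transcripts had counts in every library, with a lowest count of 41. The differences of Zmynd8, its ratios to other genes and the likeness of named genes are given with and without both libraries, and the epigenetic genes lowest in PILO replicate 3 also without that library.

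Zmynd8 was lower in PILO than in CTRL and stood near the CTRL level in PILO+KD. In CTRL replicates 1 to 3 its level was 69.8, 68.9 and 78.9 CPM, from 1445, 1030 and 1854 counts. In PILO replicates 1 to 3 it was 50.8, 38.8 and 35.9 CPM, from 920, 959 and 614 counts. In PILO+KD replicates 1 to 3 it was 62.8, 64.1 and 70.0 CPM, from 1463, 1286 and 745 counts. The 3 PILO libraries were the lowest of the 9, CTRL replicate 3 was the highest, and the remaining CTRL libraries and the PILO+KD libraries lay close together.

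**Figure D1:**
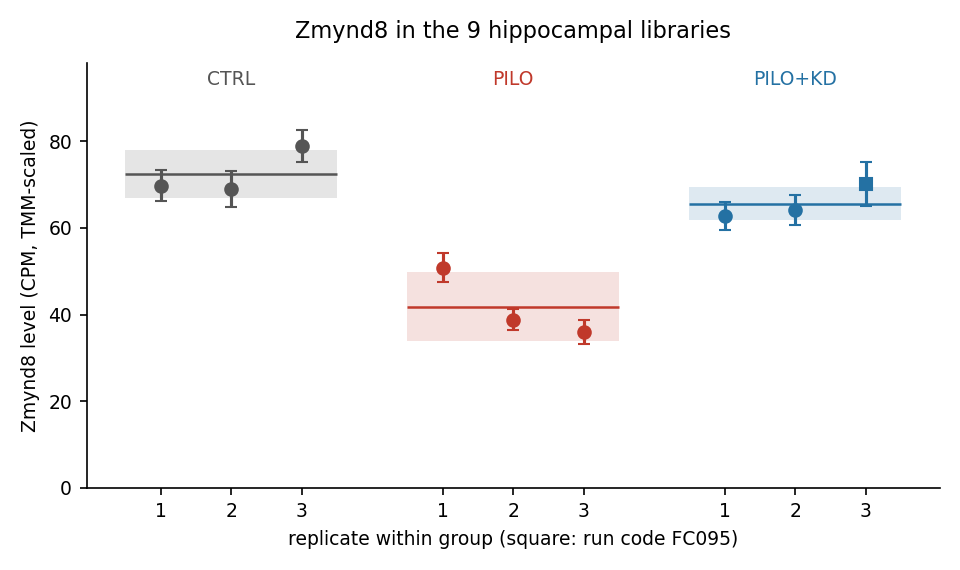
Zmynd8 level in CPM (y axis) for each library (x axis, replicates within the 3 groups). Bars are exact 95% Poisson intervals of the count, lines and shading give the group mean ± SD, and the square is the library with run code FC095. The 3 PILO libraries sit between 35.9 and 50.8 CPM, below the 62.8 to 78.9 CPM of the other 6.

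The group means were 72.5 ± 5.51 CPM in CTRL, 41.8 ± 7.92 CPM in PILO and 65.6 ± 3.87 CPM in PILO+KD (SD, n = 3 each). PILO stood at 57.7% of the CTRL mean and PILO+KD at 90.5%. With the PILO mean at the start and the CTRL mean at the end, the 3 animals on the diet had covered 68.2%, 72.5% and 91.9% of the distance (77.5% ± 12.6 on average, SD). A position on this scale uses the same CTRL and PILO libraries for every point.

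PILO and CTRL did not overlap, and 18.1 CPM separated the lowest CTRL from the highest PILO library. The log2 difference was -0.79 (SE 0.18), a difference of -30.7 CPM. It exceeded the SD of both groups. Such a separation with the lower values in PILO was seen at 14.2% of all transcripts tested, and nothing is read from it for Zmynd8, which was chosen on this contrast. A smaller absolute log2 difference was found at 88.4% of transcripts.

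PILO+KD and PILO did not overlap either. All 9 pairings of a PILO+KD with a PILO library had the higher value in PILO+KD, and the gap was 11.9 CPM. The log2 difference was 0.65 (SE 0.18), which is 23.8 CPM or 1.57-fold. A separation with the higher values in PILO+KD was seen at 5.65% of transcripts, and the same reservation holds.

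PILO+KD and CTRL overlapped. PILO+KD replicate 3, at 70.0 CPM, lay above CTRL replicates 1 and 2, while the other PILO+KD libraries lay below all 3 CTRL libraries. The log2 difference was -0.14 (SE 0.18), or -6.89 CPM, beside an SD of 5.51 CPM in CTRL. Among all transcripts, 45.3% had a smaller absolute difference in this contrast. The overlap rested on the library with run code FC095: within run code FC094 the PILO+KD mean was 63.4 CPM, the groups separated, and the log2 difference was -0.19 (SE 0.20).

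In order of level the groups ran CTRL, PILO+KD and PILO. CTRL and PILO+KD were neighbours whose libraries overlapped, and PILO lay apart from both. Among single libraries CTRL replicates 1 and 2 had counting intervals of 66.2 to 73.5 and 64.8 to 73.2 CPM. That of PILO+KD replicate 3 was 65.1 to 75.2 CPM, so the 3 could not be ordered at this depth.

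Counting error was below the spread between animals in each group, by the least in PILO+KD. It amounted to a CV of 2.69% in CTRL, 3.52% in PILO and 3.02% in PILO+KD, while the observed CV was 7.60%, 18.9% and 5.90%. Chi-square per degree of freedom within a group was 8.69, 27.6 and 3.07, where counting alone averages 1. In each group the spread turned on 1 library. The CV of the remaining 2 libraries was 0.893% without CTRL replicate 3, 5.46% without PILO replicate 1 and 1.46% without PILO+KD replicate 3, so no order of the groups by spread is read from these values.

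The direction of each difference in CPM was the same under every library scaling and test tried and with each of the 9 libraries left out. Ratios to sums of other genes, given further on, did not all keep it. Without PILO replicate 3, the library low in neuronal genes, PILO minus CTRL was -0.70 (SE 0.16) and PILO+KD minus PILO was 0.55 (SE 0.16). Without PILO replicate 1 the same values were -0.96 (SE 0.19) and 0.81 (SE 0.19). Leaving out PILO+KD replicate 3 gave 0.60 (SE 0.20) for PILO+KD minus PILO. Scaled by library totals alone, the group means were 74.1 ± 8.33, 40.4 ± 10.9 and 67.6 ± 6.84 CPM, and the same pairs of libraries overlapped.

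**Figure D2:**
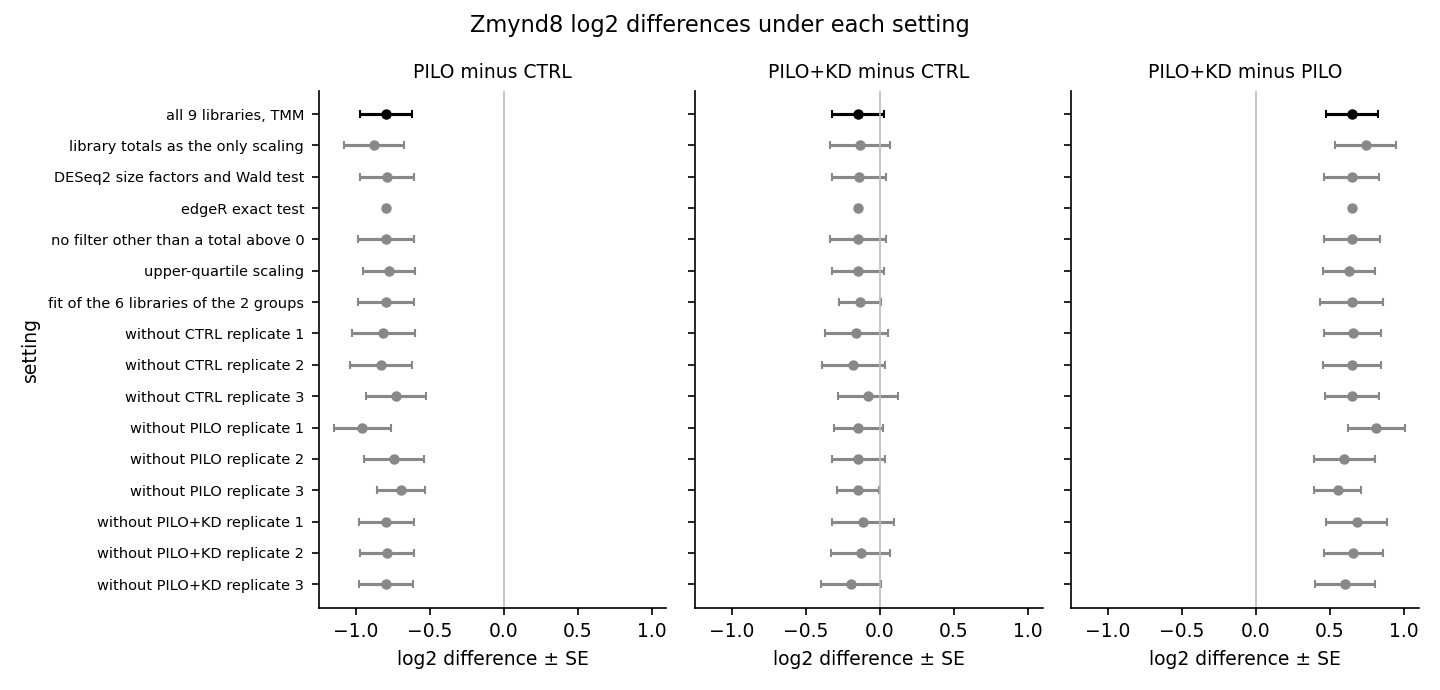
Log2 difference of Zmynd8 (x axis, ± SE; the exact test gives no SE) in 3 contrasts under the 16 settings listed on the y axis, with the values of the text in black. PILO minus CTRL stays between -0.96 and -0.70, PILO+KD minus CTRL between -0.19 and -0.08, and PILO+KD minus PILO between 0.55 and 0.81.

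No other transcript had the same count as Zmynd8 in all 9 libraries, but ENSRNOT00000065165 followed it almost count for count. It had 1316, 940 and 1699 counts in CTRL, 851, 890 and 549 in PILO and 1378, 1177 and 700 in PILO+KD. These were 89.4% to 94.2% of the Zmynd8 count (mean 92.04% ± 1.5, SD over 9 libraries). The ratio thus stayed nearly fixed while the level itself ranged from 35.9 to 78.9 CPM.

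Chi-square per degree of freedom for a constant ratio of these 2 rows was 0.121, the lowest of 14301 transcripts, and the next lowest was 0.925. Separately counted reads average 1, and the median over all transcripts was 31.0. The authors' rule for reads that fit several transcripts is not given in the sources used here, and the identifier is not paired with a gene, so the Zmynd8 values may include reads that were also counted for this row. RefSeq lists Zmynd8 with 30 transcripts and also the pseudogenes Zmynd8-ps1 and Zmynd8-ps2. Whether reads of 36 bp from these were counted here was not tested.

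The 9 other epigenetic genes of the study show how Zmynd8 compares with genes of related roles. The study chose them, like Zmynd8, for their difference between PILO and CTRL in these libraries. All 9 had separate PILO and CTRL groups, 4 higher in PILO (13.2% of all transcripts) and 5 lower (14.2%), against 27.4% of all transcripts in either direction. Since the list was chosen on this contrast, the count supports nothing. With the edgeR quasi-likelihood test 0 of 9 had an adjusted p under 0.05 (0.13% of all transcripts did), while 9 of 9 had an unadjusted p under 0.05 (18.8% of all). DESeq2 and the edgeR exact test each called Apobec1, Eif2c1, Ezh1, Gadd45a and Ncoa1. Beside these, DESeq2 called 3.82% of the 19680 transcripts to which it gave an adjusted p. The exact test called 3.09% of all 22283. As the list was chosen on this contrast, nothing is read from this either. The 5 lower genes had log2 differences of -0.99 to -0.88 and the 4 higher genes 0.68 to 1.43. The median of the 9, -0.88 (0.01 over all transcripts), was thus the value of Mll1 and describes no shift of the list as a whole.

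**Figure D3:**
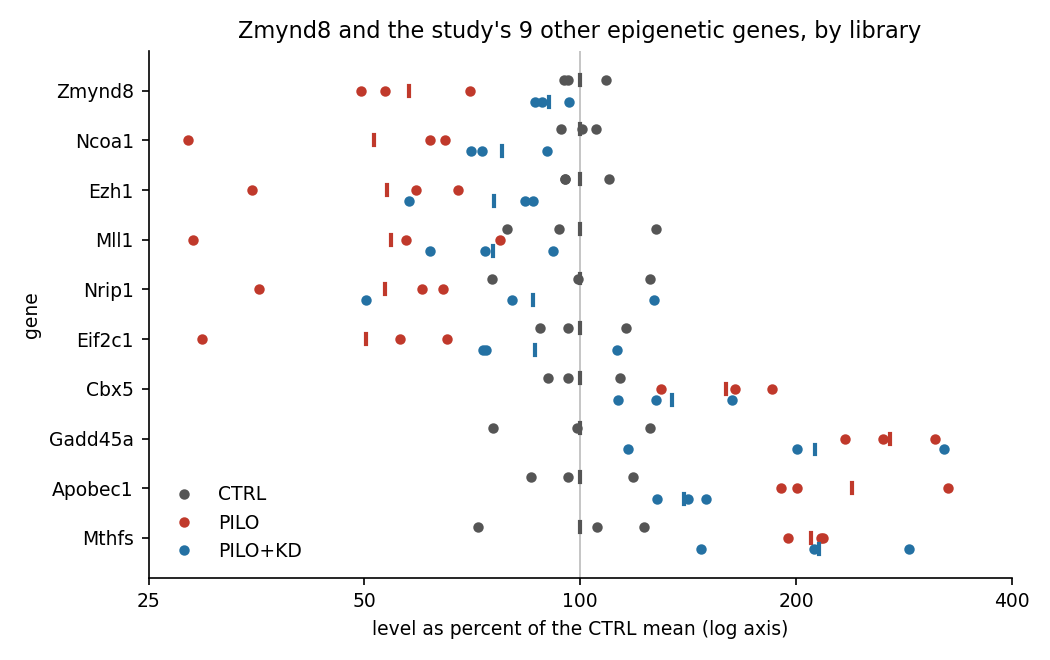
Level of Zmynd8 and the 9 other epigenetic genes (y axis) in each library as percent of the CTRL mean of that gene (x axis, log scale). Points are libraries and short bars are group means. For Zmynd8 the PILO+KD libraries lie at 86.6% to 96.6%, and for Gadd45a and Nrip1 they span a wider range.

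Among the enzymes that write or remove histone marks and their partners, the levels in CTRL were also the highest. Ncoa1, a nuclear receptor coactivator with histone acetyltransferase activity, was at 93.4 ± 5.29 CPM in CTRL, 48.2 ± 18.9 in PILO and 72.6 ± 9.95 in PILO+KD. Ezh1, a methyltransferase for lysine 27 of histone H3, was at 111 ± 9.28, 59.8 ± 18.8 and 84.3 ± 17.5 CPM. Mll1, a methyltransferase for lysine 4 of histone H3, was at 39.8 ± 9.89, 21.6 ± 9.68 and 30.1 ± 6.0 CPM. For these 3 genes PILO replicate 3 was the lowest library by a wide margin, at 26.5, 38.8 and 11.5 CPM. Without it the PILO means of Ncoa1, Ezh1 and Mll1 were 59.1, 70.4 and 26.7 CPM, still below the CTRL means. The log2 difference of PILO+KD from PILO was then 0.30 for Ncoa1, 0.26 for Ezh1 and 0.17 for Mll1. Zmynd8 differed from them there: PILO replicate 2, at 38.8 CPM, was nearly as low as PILO replicate 3, at 35.9 CPM.

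The corepressor Nrip1 and the argonaute gene Eif2c1, which acts in the microRNA pathway, had the same order of means. Nrip1 was at 9.34 ± 2.33 CPM in CTRL, 4.99 ± 1.45 in PILO and 8.02 ± 3.61 in PILO+KD. Eif2c1 was at 22.1 ± 3.19, 11.1 ± 4.07 and 19.1 ± 4.97 CPM. In PILO+KD the libraries of Nrip1 spread from 4.70 to 11.9 CPM, across both other groups. PILO replicate 3 was the lowest library for both genes, and without it the log2 difference of PILO+KD from PILO was 0.48 for Nrip1 and 0.52 for Eif2c1.

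The genes that were higher in PILO had another pattern. Cbx5, the heterochromatin protein HP1 alpha, was at 24.8 ± 3.05 CPM in CTRL, 39.7 ± 6.97 in PILO and 33.4 ± 6.38 in PILO+KD. Apobec1, a cytidine deaminase, was at 2.26 ± 0.380, 5.40 ± 1.70 and 3.16 ± 0.252 CPM. Gadd45a, a DNA damage response gene linked to removal of DNA methylation, was at 3.8 ± 0.944, 10.3 ± 1.51 and 8.10 ± 3.91 CPM. Mthfs, an enzyme of folate metabolism, was at 1.42 ± 0.366, 2.98 ± 0.187 and 3.06 ± 0.992 CPM, so that its PILO+KD mean stood at the PILO level.

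For PILO+KD against PILO, the contrast in which Zmynd8 had a log2 difference of 0.65, the other 9 genes had fitted differences above 0 for 6 and below 0 for 3. None had an adjusted p under 0.05 by the quasi-likelihood test (0% of all transcripts), DESeq2 (0.0988% of 22266 with an adjusted p) or the exact test (0.121%). By the quasi-likelihood test 3 had an unadjusted p under 0.05 (7.19% of all transcripts). These were Eif2c1 with 0.78 (SE 0.28), Ncoa1 with 0.59 (SE 0.27) and Apobec1 with -0.77 (SE 0.27), and they were also the 3 genes without overlap of the groups (12.2% of all transcripts, 5.65% with higher and 6.52% with lower values in PILO+KD). The 3 genes depended on the setting. Ncoa1 no longer had such a p with library totals, upper-quartile scaling or a fit of the 6 libraries, nor with any library other than PILO replicate 1 or 2 left out, so that most alternatives gave 2 genes. With PILO replicate 3 left out only Eif2c1 had an unadjusted p under 0.05, and the differences of Eif2c1, Ncoa1 and Apobec1 were 0.52, 0.30 and -0.48. Without PILO replicate 1 there were 5 such genes, with Ezh1 and Mll1 added. Without PILO+KD replicate 1 the genes were Apobec1 and Ezh1, and without PILO+KD replicate 3 there were 4, namely Apobec1, Eif2c1, Gadd45a and Nrip1.

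For PILO+KD against CTRL none had an adjusted p under 0.05 by the same 3 tests (0%, 0.126% and 0.166% of all transcripts), and Gadd45a, at 1.06 (SE 0.34), and Mthfs, at 1.12 (SE 0.32), had an unadjusted p under 0.05 (3.60% of all). Without PILO replicate 3, and also in a fit of only the 6 libraries of these groups, there were 5 such genes, with Cbx5, Ezh1 and Ncoa1 added. Without PILO+KD replicate 3 the genes were Cbx5 and Mthfs. The groups did not overlap for 4 of 9 (9.83% of all). Mthfs and Apobec1 were higher in PILO+KD (4.65% of all), and Ncoa1 and Ezh1 were lower (5.17% of all). The 3 contrasts share libraries, so these counts are not independent of the choice of the list.

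The SE of Zmynd8 in each contrast was the smallest of the 10 epigenetic genes. Its mean count was 1146, with 47.7 for Mthfs and 68.7 for Apobec1. Because Zmynd8 was chosen for its pattern over these same libraries, no trait of the gene is read from its spread. The biological coefficient of variation estimated for Zmynd8 was 0.169, and 8.62% of the transcripts tested, of all levels, had a lower one. The trend over transcripts at the level of Zmynd8 was 0.210.

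Markers of cell types moved with the groups. In bulk tissue fewer cells of a type and less RNA per cell cannot be told apart. Gfap, the intermediate filament of astrocytes, was at 667 ± 127 CPM in CTRL, 2134 ± 664 in PILO and 1751 ± 900 in PILO+KD. The summed level of the 5 neuronal genes was 163 ± 21.1 CPM in CTRL (139.9 to 182), 80.2 ± 31.7 in PILO (43.7 to 100.3) and 124 ± 13.3 in PILO+KD (115 to 139.8). All 5 were chosen by the study because they were lower in PILO. Scn8a made the largest part of the sum, with means of 76.3, 37.3 and 64.6 CPM in the 3 groups. Kcna1 was at 25.3, 11.6 and 20.3 CPM and Cacng2 at 23.3, 12.1 and 17.1 CPM. Kcna2, at 9.95, 4.94 and 5.59 CPM, stayed near its PILO level in PILO+KD. Gabrd was at 27.7, 14.3 and 16.8 CPM, and its PILO+KD libraries ranged from 5.75 to 25.5 CPM.

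Set against these neuronal genes the PILO mean of Zmynd8 was not below that of CTRL. For every 100 counts of the 5 genes it had 49.9, 41.5 and 43.4 counts in CTRL, 50.7, 40.1 and 82.2 in PILO and 54.4, 45.8 and 59.2 in PILO+KD. The groups overlapped, and the PILO mean of 57.7 was above the CTRL mean of 44.9 through PILO replicate 3, without which it was 45.4. Without PILO+KD replicate 3 the PILO+KD mean was 50.1. PILO replicates 1 and 2 had nearly equal neuronal sums, of 100.3 and 96.6 CPM, and Zmynd8 levels of 50.8 and 38.8 CPM. As the 5 genes were chosen as lower in PILO, a ratio to their sum is raised there by that choice. Nothing is read from this ratio for Zmynd8.

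Gfap did not follow Zmynd8 within the PILO+KD group. Gfap was at 2632, 834 and 1786 CPM in its 3 replicates, where Zmynd8 was at 62.8, 64.1 and 70.0 CPM. PILO+KD replicate 1 had one of the highest Gfap levels of all libraries. Its Zmynd8 level was the lowest of its group and above every PILO library. Over all 9 libraries Pearson's r of log2 CPM between Gfap and Zmynd8 was -0.59 (Spearman's rho -0.57). For deviations from the group means r was 0.13. Without PILO replicate 3 the r over libraries was -0.68, and without PILO+KD replicate 3 it was -0.67. The part of cell composition in the Zmynd8 levels was not tested.

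**Figure D4:**
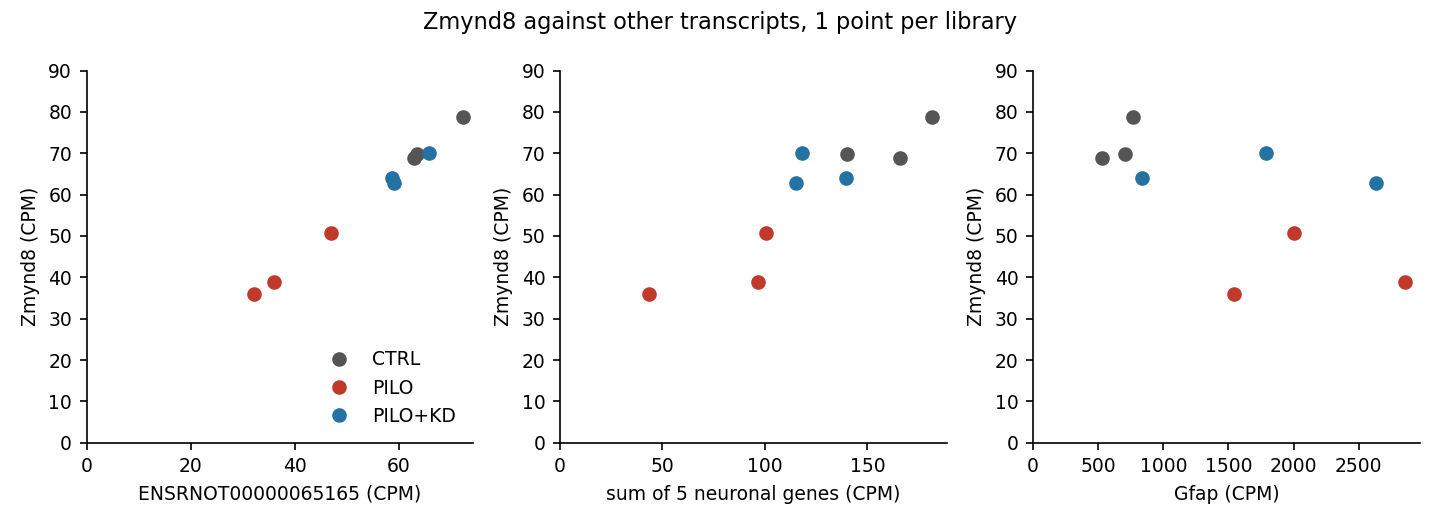
Zmynd8 level in CPM (y axes) against ENSRNOT00000065165, the sum of 5 neuronal genes and Gfap (x axes, CPM), 1 point per library and coloured by group. The first panel is nearly a line, in the second PILO replicate 3 lies far left at 43.7 CPM, and in the third the PILO+KD points spread from 834 to 2632 CPM at Zmynd8 levels of 62.8 to 70.0 CPM.

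Relative to the 9 other epigenetic genes the groups lay closer together. Zmynd8 had 23.6 ± 1.08 counts per 100 counts of these genes in CTRL, 20.8 ± 3.44 in PILO and 25.2 ± 2.50 in PILO+KD (SD, n = 3). The lowest library was PILO replicate 2, at 16.9, and the highest was PILO+KD replicate 3, at 27.4. PILO replicate 3, at 23.4, was within the CTRL range of 22.6 to 24.7. Without PILO replicate 3 the PILO mean was 19.5, and without PILO+KD replicate 3 the PILO+KD mean was 24.1.

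This ratio turned on the genes in the sum. Ezh1 and Ncoa1, both chosen by the study as lower in PILO, made up 65.4% to 68.5% of the summed counts in CTRL, 42.6% to 57.7% in PILO and 54.0% to 63.0% in PILO+KD. Of the other 7 genes, Cbx5, Gadd45a, Apobec1 and Mthfs were chosen as higher in PILO and the remaining 3 as lower. For every 100 counts of these 7 genes Zmynd8 had 78.4, 65.2 and 68.0 counts in CTRL, 52.2, 37.6 and 40.9 in PILO and 55.8, 60.6 and 72.5 in PILO+KD. Both sums rest on genes chosen on the PILO and CTRL contrast, and nothing is read from either ratio for Zmynd8.

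The genes most like Zmynd8 were ranked by Pearson's r of log2 CPM over the 9 libraries. The libraries share their groups and scaling, so r is a description, and it is given beside r for the deviations from the group means. Of 23 other genes of the study, Scn4b, a sodium channel subunit, had the highest r at 0.92 (within groups 0.53, Spearman's rho 0.78). Pcdh19, a protocadherin linked to epilepsy, had 0.91 (within groups 0.41, rho 0.75), and Kcna1, a potassium channel, had 0.90 (within groups 0.64, rho 0.78). The likeness of all 3 was weaker once the group means were removed. Without PILO replicate 3 the r of Scn4b, Pcdh19 and Kcna1 was 0.87, 0.84 and 0.86, and without PILO+KD replicate 3 it was 0.98, 0.93 and 0.93.

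At the other end were Apobec1 with -0.91 (within groups -0.60, rho -0.87), the lysosomal cholesterol carrier Npc2 with -0.85 (within groups -0.41, rho -0.75) and Cbx5 with -0.84 (within groups -0.83, rho -0.97). Of the 3, Cbx5 had the most negative r within groups. Scaled by library totals alone, the r over all libraries was -0.86 for Apobec1, -0.66 for Npc2 and -0.68 for Cbx5. Without PILO replicate 3 the r of Apobec1, Npc2 and Cbx5 was -0.84, -0.81 and -0.76, and without PILO+KD replicate 3 it was -0.93, -0.93 and -0.84. For Mll1 and Ezh1, r within groups was 0.80 and 0.75, with 0.84 and 0.88 over all libraries. The values over all libraries became 0.71 and 0.78 without PILO replicate 3, and 0.86 and 0.88 without PILO+KD replicate 3.

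Among the 14278 other transcripts with a mean of at least 100 counts, 89 (0.623%) had an r of 0.90 or more and 68 (0.476%) an r of -0.90 or less. The highest was ENSRNOT00000065165, described above, with 0.998 (within groups 0.995, rho 0.983). Next was ENSRNOT00000003813 with 0.982 (within groups 0.888, rho 0.917), at 476 ± 21.8 CPM in CTRL, 361 ± 27.8 in PILO and 444 ± 21.6 in PILO+KD. Its groups had the same order as those of Zmynd8, with a smaller difference relative to the level.

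The lowest was ENSRNOT00000026633 with -0.962 (within groups -0.841, rho -0.817), at 56.9 ± 6.33, 103.9 ± 16.4 and 70.3 ± 2.15 CPM. ENSRNOT00000055801 had -0.960 (within groups -0.957, rho -0.917), at 143 ± 4.27, 172 ± 16.0 and 152 ± 6.34 CPM. For the latter r was -0.46 when levels were scaled by library totals alone. Without PILO replicate 3 the r of ENSRNOT00000003813, ENSRNOT00000026633 and ENSRNOT00000055801 was 0.970, -0.938 and -0.932, and without PILO+KD replicate 3 it was 0.982, -0.987 and -0.959. The file pairs none of these identifiers with a gene.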

How the data were processed

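Poly-A RNA of 9 dorsal hippocampi was sequenced as single reads of 36 bp. The authors mapped them to RN4 (rat) using BWA 0.5.9 and tallied tags over Ensembl 66 transcripts by a script of their own. The deposited table holds these raw counts. Rules for shared reads and for strand were not given in the sources used here. The symbol Zmynd8 comes from the study's own pairing, since 0 identifiers matched RefSeq (GRCr8), and no coordinates are given because the builds differ. Groups came from the labels, and replicates are numbered in order of deposition and pair nothing. That each library holds 1 animal comes from the study's methods, by which samples were handled singly without pooling.

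Of 31786 transcripts (3399 with a total of 0), 22283 (70.1%) passed the filter (30th centile of the summed counts, here 55) and were tested two-sided with edgeR 4.0.16, quasi-likelihood, under R 4.3.3 (robust, TMM scaling, all 9 libraries, 3 group means, 6 residual degrees of freedom). Benjamini-Hochberg adjustment covered all transcripts tested, and the threshold was 0.05. SE is the log2 difference divided by the square root of F. CPM are TMM-scaled, with a prior count of 2 where logged. Poisson intervals (95%) cover counting error only. The tests were checked on simulated data. Alternatives were library totals, DESeq2 1.42.0, the edgeR exact test, no filter, a fit of 6 libraries and leaving out each library. Upper-quartile scaling and the ratios to neuronal and epigenetic genes (all 9, or 7 without Ezh1 and Ncoa1), and values of these genes and r without PILO or PILO+KD replicate 3, and the CV of Zmynd8 without each library, were added after seeing the data. Zmynd8 and the gene lists were chosen with earlier results of these data known. Named genes were Zmynd8, the 9 other epigenetic genes, the 3 study genes with the highest and the 3 with the lowest r, 2 further identifiers at each end of r, and the marker genes. Atp2a2 and Ndufa2 were named after their values were seen. Mll1 and Ezh1 are also given by their r within groups, chosen after their values were seen. A further gene of the study is not reported here.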

Additional observations from a re-analysis of the deposited data

How the results depend on the processing

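The Zmynd8 log2 differences kept their direction and moved by less than 1 SD of the replicates (0.17 log2) under all 15 alternatives. Leaving out 1 library gave -0.96 to -0.70 for PILO minus CTRL, -0.19 to -0.08 for PILO+KD minus CTRL and 0.55 to 0.81 for PILO+KD minus PILO. The numbers of transcripts called over the whole table depended on the setting, and the cause was not tested. In PILO vs CTRL 29 transcripts had an adjusted p under 0.05, with 9 by library totals, 752 by DESeq2, 689 by the edgeR exact test and 85 with no filter. Leaving out 1 library gave 0 to 83: 0, 2 and 0 without CTRL replicates 1, 2 and 3, 19 and 83 without PILO replicates 2 and 3, and 46, 54 and 2 without PILO+KD replicates 1, 2 and 3. In PILO+KD vs CTRL there were 0 (803 at an unadjusted p under 0.05), with 28 by DESeq2, 37 by the exact test, 2 without CTRL replicate 2 and 8 without PILO+KD replicate 2 (0 to 8 over single libraries left out). In PILO+KD vs PILO there were 0 (1602 at an unadjusted p under 0.05), with 22 by DESeq2, 27 by the exact test, 1 with no filter and 0 to 1 without single libraries (1 when PILO replicate 2 or 3 or PILO+KD replicate 1 was left out). Of the 9 other epigenetic genes, DESeq2 and the exact test each called 5 in PILO vs CTRL. The number of these 9 at an unadjusted p under 0.05 was 1 to 5 in PILO+KD vs PILO (3 as reported; 1 without PILO replicate 3, 5 without PILO replicate 1) and 2 to 5 in PILO+KD vs CTRL (2 as reported; 5 without PILO replicate 3 and in the fit of 6 libraries). With library totals the median log2 difference of all transcripts in PILO+KD vs PILO moved from 0.00 to 0.10. Counts of 614 to 1854 for Zmynd8 put counting error below the spread between animals, and 3 libraries per group limit the precision. No paired analysis was possible because the labels give no replicate numbers that groups share.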
